A study of Mus musculus with 6 samples.

Results

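The Reg genes encode small secreted C-type lectins, and 5 of them (Reg1, Reg3a, Reg3b, Reg3g and Reg4) were described across 6 RNA-seq libraries of mouse Paneth cells. They were taken by symbol from the 55414 genes of the count table. All 5 had counts, and 3 of them, Reg3b, Reg3g and Reg4, passed the filter on low counts that left 9749 genes for testing. The cells were FACS-sorted from the small intestine of WT mice (C57BL/6J in the general description of the sorts), and the age of the mice is not given in the sources used here. The 3 libraries of the group St_TNF came from mice on standard chow, and for the 3 of ZincDef_TNF the mice had eaten a zinc depleted diet during 7 weeks. All mice had received TNF 3 hours before sampling, so every value below is a level after TNF, with no library from mice without it. The design text names 4 biological replicates per group, and 3 per group were analysed here. The methods describe such sorted samples as taken from individual mice, while the labels name no animal for a library, and the p-values measure the spread between these libraries.

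Reg lectins carry a single carbohydrate recognition domain and are released into the gut lumen. Reg3g binds peptidoglycan and kills mainly Gram-positive bacteria, and Reg3b acts mainly on Gram-negative bacteria. In the small intestine both are made by Paneth cells and by enterocytes, and both are known to be induced by bacteria through MyD88 and through IL-22 and STAT3. Reg1 is best known from pancreatic acinar cells and is also made in the intestine. Reg3a is a less studied Reg3 lectin of the mouse. Reg4 is a more distant relative that is known from enteroendocrine, goblet and deep crypt secretory cells.

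Of the 7 Reg genes considered, 6 lie within 98.2 kb of chromosome 6 in GRCm39 and Reg4 lies apart on chromosome 3. Reg3b (ENSMUSG00000071356, 78347640 to 78350455, plus strand) and Reg3g (ENSMUSG00000030017, 78443246 to 78445859, minus strand) stand at the 2 ends of the cluster. Between them lie Reg3d, Reg3a (ENSMUSG00000079516, 78357692 to 78360810, plus strand), Reg2 and Reg1 (ENSMUSG00000059654, 78399694 to 78405828, plus strand). Reg4 (ENSMUSG00000027876) runs from 98129468 to 98144066 on the plus strand. Each canonical transcript has 6 exons, and none of the 7 genes overlaps another annotated gene. Exact stretches of 75 bases can be told apart between them: 100% of those of each canonical transcript are absent from the transcripts of all other genes. Shorter stretches and matches with mismatches were not examined. The coding sequences of Reg3b and Reg3g are identical at 76.4% of 522 aligned bases, and those of Reg3b and Reg3a at 76.5% of 515.

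**Figure D1:**
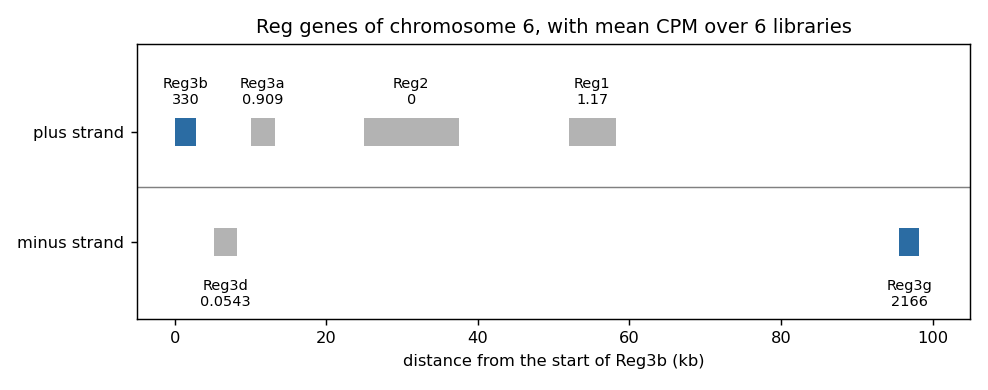
Map of the 6 Reg genes of chromosome 6 to scale, with distance from the start of Reg3b in kb on the horizontal axis, the strand on the vertical axis and the mean CPM over 6 libraries under each symbol. The blue genes at the 2 ends, Reg3b with 330 CPM and Reg3g with 2166 CPM, are the ones with a mean of at least 10 CPM, and the grey genes between them had means from 0 to 1.17 CPM.

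The promoters of Reg3b and Reg3g, the expressed genes of the cluster, and of Reg3a, a neighbour with few counts, are shown to compare their start regions. They were taken from RefSeq (250 bases before to 50 bases after the start site) and placed on GRCm39 by exact match. Capitals mark TATAAA and TTCNNNGAA, the core of a STAT site, on either strand, so that TATAAA on the other strand reads TTTATA.
Reg3b promoter, chr6:78347618-78347917, plus strand: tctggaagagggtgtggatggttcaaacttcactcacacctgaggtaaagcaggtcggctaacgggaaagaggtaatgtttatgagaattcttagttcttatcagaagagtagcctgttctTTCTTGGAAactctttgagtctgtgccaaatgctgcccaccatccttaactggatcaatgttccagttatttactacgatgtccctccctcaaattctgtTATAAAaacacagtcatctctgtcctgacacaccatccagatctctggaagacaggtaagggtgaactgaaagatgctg
Reg3g promoter, chr6:78445808-78446107, minus strand: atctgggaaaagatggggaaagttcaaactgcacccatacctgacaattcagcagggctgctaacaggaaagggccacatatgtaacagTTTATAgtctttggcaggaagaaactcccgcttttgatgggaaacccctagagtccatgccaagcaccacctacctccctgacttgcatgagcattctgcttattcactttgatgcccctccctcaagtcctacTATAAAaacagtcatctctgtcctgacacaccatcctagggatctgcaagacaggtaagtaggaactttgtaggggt
Reg3a promoter, chr6:78357442-78357741, plus strand: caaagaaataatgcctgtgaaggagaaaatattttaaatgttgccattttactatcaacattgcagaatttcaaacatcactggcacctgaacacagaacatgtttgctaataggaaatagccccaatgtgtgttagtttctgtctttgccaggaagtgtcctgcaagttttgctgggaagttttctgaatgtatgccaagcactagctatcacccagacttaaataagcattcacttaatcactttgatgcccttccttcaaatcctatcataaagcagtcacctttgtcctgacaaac
TATAAA begins at -29 from the start site in Reg3b and at -27 in Reg3g, which has another match on the other strand at -161, and it was not found in the Reg3a window. TTCNNNGAA was found at -129 in Reg3b and in neither of the other two. Other genes of the cluster with few or no counts hold these motifs too. TATAAA begins at -30 in Reg1 and at -30 in Reg2, and TTCNNNGAA begins at -238 in Reg3d. Positions count from the RefSeq start site. GENCODE starts Reg3b at 78347640, near the first base of its window, so these Reg3b matches lie inside the gene as annotated there. Over 32851 RefSeq promoters of the same length, 13.6% hold TATAAA and 8.30% hold TTCNNNGAA. The TCF/LEF core CTTTGA, which 5257 of these promoters hold, begins at -117 in Reg3b, at -54 in Reg3g and at -7 in Reg3a. The E-box CAGCTG, found in 16.3% of promoters, is in none of these 3 windows. The windows of Reg3b and Reg3g are identical at 71.4% of 294 aligned bases, those of Reg3a and Reg3g at 73.9% of 249 and those of Reg3a and Reg3b at 68.3% of 246, compared with 60.8% to 67.8% when each chromosome 6 window is aligned with that of Reg4. The Reg4 window holds none of the 4 motifs.

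The libraries held 6139397 to 12772373 counts, so that a count of 0 allows up to 3 counts or 0.235 to 0.489 CPM (counts in the library scaled to a common total). Intervals and these limits cover counting error only. Lyz1, the lysozyme of Paneth granules, took 11.95% to 16.2% of the counts on standard chow and 15.7% to 19.2% on depleted chow, and all 8 Paneth cell markers examined were counted in each library. Markers of other cells were also counted, some of them above Cd24a, the least abundant of the Paneth cell markers, and they differed between libraries. The TMM factors, which scale a library so that most genes match between libraries, were 1.73, 1.51 and 0.90 on standard chow and 1.46, 0.64 and 0.46 on depleted chow (replicates 1, 2 and 3). Fold changes therefore depend on the scaling: over all tested genes the log2 fold change had a median of 0.00 after TMM, and of -0.67 when libraries were scaled by total counts alone. In such bulk samples, fewer cells of a type and less RNA per cell cannot be told apart.

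Reg4, Reg3g and Reg3b were abundant and Reg1 and Reg3a were close to the detection limit. The 5 genes together took 0.438%, 0.444% and 0.382% of the counts on standard chow and 0.517%, 0.454% and 0.479% on depleted chow. Reg4 ranked between 18 and 28 among all genes by count, Reg3g between 18 and 27, and Reg3b between 41 and 183. Compared per transcript length as TPM, Reg4 stood at 1480 ± 268 and Reg3g at 1431 ± 152 on standard chow (SD, n = 3), a difference smaller than the spread between libraries. With zinc depletion Reg3g had 2073 ± 272 TPM and Reg4 1096 ± 675 TPM (SD, n = 3). Reg3b came next on the TPM scale in each library, with 202 ± 44.2 TPM on standard chow and 324 ± 78.0 TPM on depleted chow (SD, n = 3). Over the 6 libraries the mean was 0.832 TPM for Reg1 and 0.714 TPM for Reg3a, and these 2 genes did not differ beyond their spread.

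**Figure D2:**
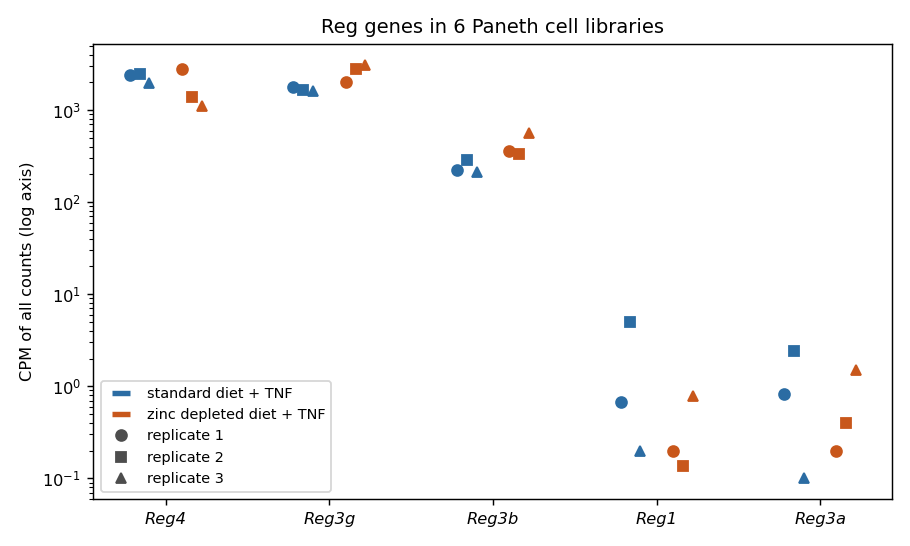
CPM of the 5 Reg genes on a log axis, with 1 point per library, blue for standard diet and orange for zinc depleted diet, and the marker shape giving the replicate. Reg4 and Reg3g lie between 1112 and 3116 CPM, Reg3b between 211 and 565 CPM, and Reg1 and Reg3a at or below 5.05 CPM.

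Reg3g, the peptidoglycan-binding lectin, had 1768, 1661 and 1618 CPM on standard chow and 2006, 2826 and 3116 CPM on depleted chow. The 3 standard diet libraries were close together, and each zinc depleted library lay above them, with replicate 1 the nearest. The mean was 1682 ± 77.4 CPM on standard chow and 2649 ± 576 CPM on depleted chow (SD, n = 3), a ratio of 1.57. After TMM scaling the values were 1022, 1103 and 1803 CPM on standard chow and 1376, 4422 and 6784 CPM on depleted chow. On that scale the groups overlapped, since standard diet replicate 3 lay above zinc depleted replicate 1. The log2 fold change was 1.68 (SE 0.64, adjusted p 0.681 by the quasi-likelihood test of edgeR), which did not pass the threshold of 0.05, and with total counts only it was 0.65 (SE 0.28).

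Reg3b, the lectin directed mainly at Gram-negative bacteria, had 223, 286 and 211 CPM on standard chow and 358, 336 and 565 CPM on depleted chow. All zinc depleted libraries again lay above all standard diet libraries, and replicate 3 stood above the other zinc depleted libraries. The mean was 240.0 ± 40.0 CPM on standard chow and 420 ± 126 CPM on depleted chow (SD, n = 3), a ratio of 1.75. After TMM scaling Reg3b had 129, 190 and 235 CPM on standard chow and 246, 525 and 1230 CPM on depleted chow, without overlap but with little distance between standard diet replicate 3 and zinc depleted replicate 1. The log2 fold change was 1.85 (SE 0.59, adjusted p by edgeR 0.681), which did not pass the threshold. It was 0.80 (SE 0.37) with total counts only, and 1.10 (SE 0.51) with TMM when zinc depleted replicate 3 was left out.

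Stem and Paneth cell markers are given beside Reg3g and Reg3b, and other marker lists also differed between the diets. In CPM of all counts the 5 stem cell markers summed to 3861, 1514 and 1250 CPM on standard chow. On depleted chow the sums were 727, 524 and 562 CPM, without overlap on that scale. Olfm4 made up most of each sum (3372 CPM in standard diet replicate 1). The enteroendocrine marker sum was also lower without overlap, with 45.2 to 143 CPM on standard chow and 32.1 to 41.3 CPM on depleted chow. With total counts only the median log2 fold change over all tested genes was -0.67, and the share of genes lower without overlap was not counted. The sums were not compared after TMM scaling, where all 4 stem cell markers tested were lower (median log2 fold change -0.72). Of the 8 Paneth cell markers 7 were higher and 1 lower after TMM (median log2 fold change 1.19). With total counts only 5 were higher and 3 lower with a median of 0.26, and their summed CPM overlapped between the diets. After TMM, 6 of 6 tested tuft (median -1.03), 3 of 4 enterocyte (-1.17) and 6 of 8 enteroendocrine markers (-0.69) were lower. In the other lists 5 of 7 goblet, 2 of 3 immune and 2 of 2 pancreatic acinar markers were higher after TMM. With total counts only, 5 of 7 goblet, 0 of 3 immune and 1 of 2 pancreatic acinar markers were higher. In that fit 0 of 6 tuft, 0 of 4 enterocyte and 1 of 8 enteroendocrine markers were higher. None of these markers passed the threshold, and their part in the Reg3g and Reg3b values was not tested.

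These counts of separated groups are to be read against all tested genes. With edgeR, 0 genes (0% of 9749) had an adjusted p under 0.05 and 645 an unadjusted p under 0.05, and limma-voom on the same genes gave 0 and 625. DESeq2, which was run without the low-count filter and gave an adjusted p for 17776 genes, gave 6 and 931. None of the 6 was one of the 5 Reg genes. Both Reg3b and Reg3g were among the 252 genes (2.58%) that were higher on depleted chow at an unadjusted p under 0.05, with p of 0.00963 and 0.0230 in the edgeR fit. With total counts only, 8 genes (0.0821%) met the same rule, and Reg3g was 1 of them (unadjusted edgeR p 0.0459) while Reg3b was not (0.0589). In that fit 585 genes were lower at an unadjusted p under 0.05, and the median log2 fold change over all tested genes was -0.67. The shares of genes higher without TMM, here and in the next sentence, are to be read with this shift. Groups without overlap and higher on depleted chow were found for 0.554% of tested genes in CPM, among them Reg3b and Reg3g, and for 3.53% after TMM scaling, among them Reg3b.

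**Figure D3:**
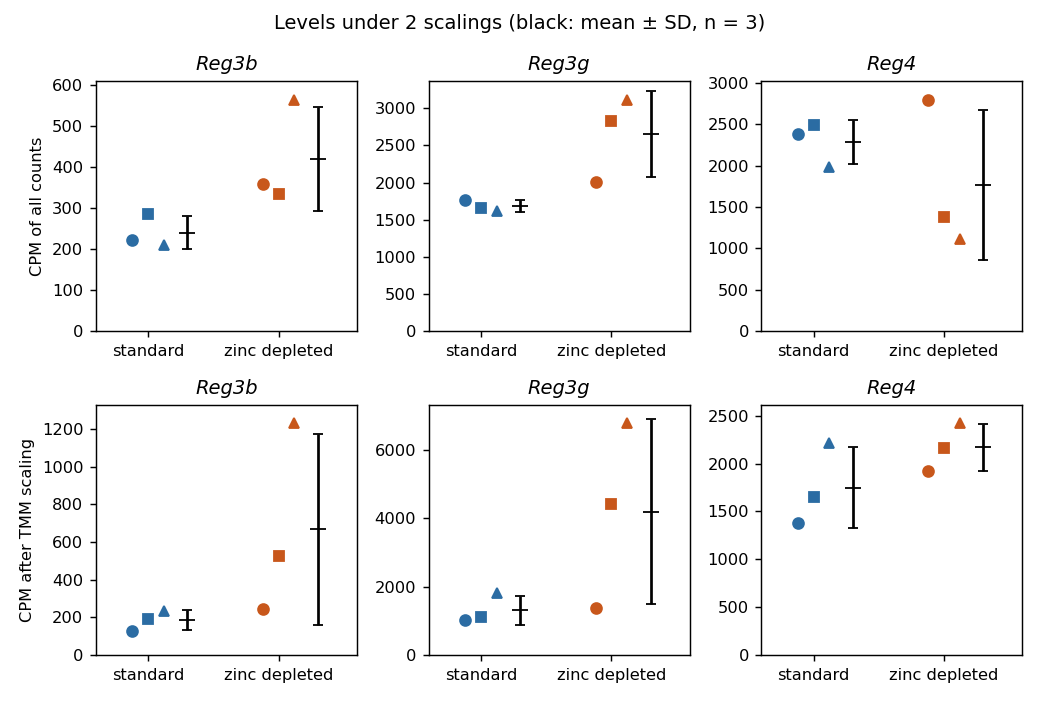
CPM of Reg3b, Reg3g and Reg4 as a share of all counts in the upper row and after TMM scaling in the lower row, with 1 point per library (circle, square and triangle for replicates 1, 2 and 3, blue for standard and orange for zinc depleted diet) and the mean ± SD (n = 3) in black. Reg4 has the higher mean on standard chow in the upper row (2289 against 1765 CPM) and on depleted chow in the lower row (2169 against 1750 CPM).

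In CPM of all counts Reg4 did not show the order of libraries seen for Reg3b and Reg3g. It had 2389, 2490 and 1987 CPM on standard chow and 2801, 1383 and 1112 CPM on depleted chow. The highest and the 2 lowest values were all from zinc depleted libraries, so the groups overlapped. The mean was 2289 ± 266 CPM on standard chow and 1765 ± 907 CPM on depleted chow (SD, n = 3). After TMM scaling the values drew together, with 1382, 1653 and 2214 CPM on standard chow and 1921, 2163 and 2422 CPM on depleted chow. On that scale the order of libraries was that of Reg3g, except that standard diet replicate 3 also lay above zinc depleted replicate 2. The log2 fold change was 0.31 (SE 0.47, adjusted p by edgeR 0.845) with TMM and -0.38 (SE 0.38, adjusted p by edgeR 0.699) with total counts only, so its sign rests on the scaling and neither value passed the threshold.

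The spread within the groups also depended on the scale. After TMM scaling the SD of log2 CPM within groups was 0.90 for Reg3g and 0.88 for Reg3b, against a median of 0.54 over all tested genes, and 0.27 for Reg4. A smaller SD than that of Reg4 was found for 10.6% of tested genes. In CPM of all counts the order turned, with 0.24 for Reg3g, 0.33 for Reg3b and 0.51 for Reg4, and the median over all tested genes was 0.79. Reg3g was then among the steadiest genes, with 3.80% of tested genes below it. These shares are over all tested genes, most of them less abundant than Reg3g and Reg4, and genes of like abundance were not compared separately.

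**Figure D4:**
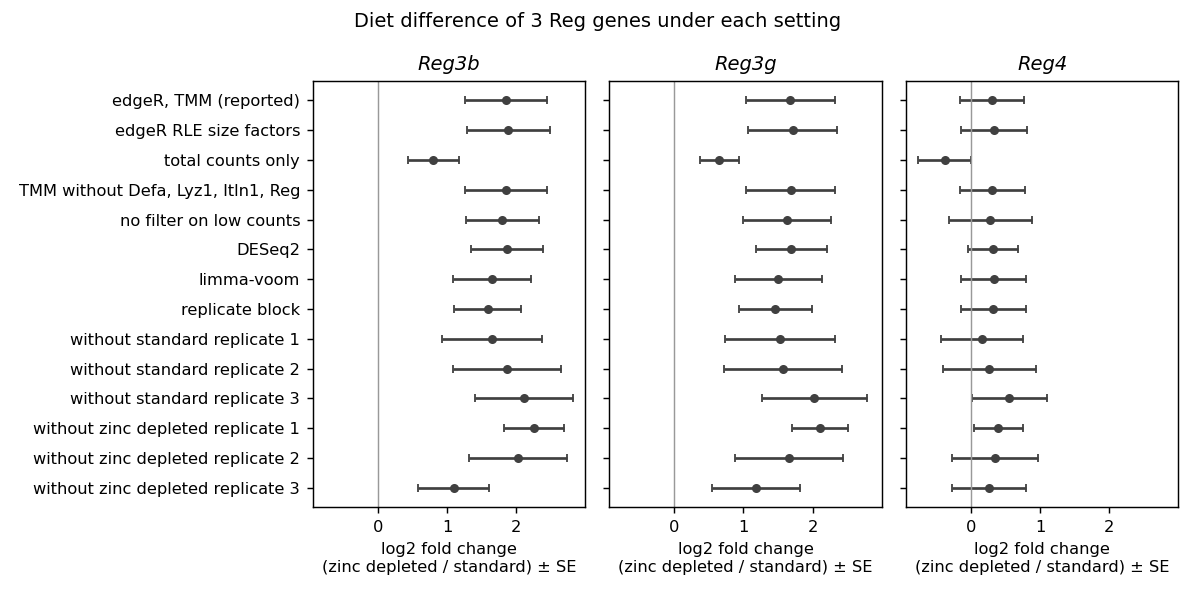
Log2 fold change (zinc depleted over standard diet) with its SE for Reg3b, Reg3g and Reg4 under the reported fit and 13 alternatives. Reg3b lies between 0.80 and 2.26 and Reg3g between 0.65 and 2.11, above 0 in each setting, while Reg4 lies between -0.38 and 0.56 and is below 0 with total counts only.

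Ratios between genes inside a library do not depend on the scaling. There were 7.92, 5.81 and 7.66 Reg3g reads for each Reg3b read on standard chow and 5.59, 8.42 and 5.52 on depleted chow. The groups overlapped, and the difference of the mean log2 ratios was -0.15 (p = 0.8, two-sided exact permutation test, which cannot give less than 0.1 for 3 against 3). Against Lyz1, Reg3g had 14.8, 11.2 and 9.99 reads per 1000 Lyz1 reads on standard chow and 12.8, 14.7 and 18.2 on depleted chow. Reg3b had 1.87, 1.92 and 1.30 reads per 1000 Lyz1 reads on standard chow and 2.29, 1.75 and 3.29 on depleted chow. For both genes the groups overlapped, with differences of 0.35 for Reg3g and 0.50 for Reg3b in the mean log2 ratio (p = 0.3 for each, exact permutation test). Reg4 had 20.0, 16.7 and 12.3 reads per 1000 Lyz1 reads on standard chow and 17.9, 7.19 and 6.48 on depleted chow, a difference of -0.77 with overlap of the groups (p = 0.3, exact permutation test). After Benjamini-Hochberg adjustment over these 4 ratios the p was 0.8 for Reg3g to Reg3b and 0.4 for the ratios to Lyz1 (exact permutation tests).

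The make-up of the Reg counts differed between libraries more than their sum. Reg4 made up 54.5%, 56.0% and 52.1% of the counts of the 5 genes on standard chow, and 54.2%, 30.4% and 23.2% on depleted chow. Reg3g made up 40.3%, 37.4% and 42.4% on standard chow and 38.8%, 62.2% and 65.0% on depleted chow. In these 2 shares zinc depleted replicate 1 lay near the standard diet libraries, and zinc depleted replicates 2 and 3 stood apart from the other 4. Reg3b made up 5.09%, 6.43% and 5.53% on standard chow and 6.94%, 7.39% and 11.8% on depleted chow, and in that share replicate 1 also lay above the standard diet libraries. The number of Reg4 reads for each Reg3g read, a ratio chosen after its values were seen and not tested, was 1.35, 1.50 and 1.23 on standard chow and 1.40, 0.489 and 0.357 on depleted chow. The number of Reg4 reads for each Reg3b read was likewise chosen after its values were seen and not tested. It was 10.7, 8.71 and 9.41 on standard chow and 7.81, 4.12 and 1.97 on depleted chow, without overlap. In all 4 ratios that were tested the groups overlapped, and the share of gene pairs that separate in this way was not counted. Zinc depleted replicates 2 and 3 also had the lowest TMM factors (0.64 and 0.46) and the fewest genes with a count (12507 and 12421, against 13528 to 14289 in the others), and the part of this in the result was not tested.

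**Figure D5:**
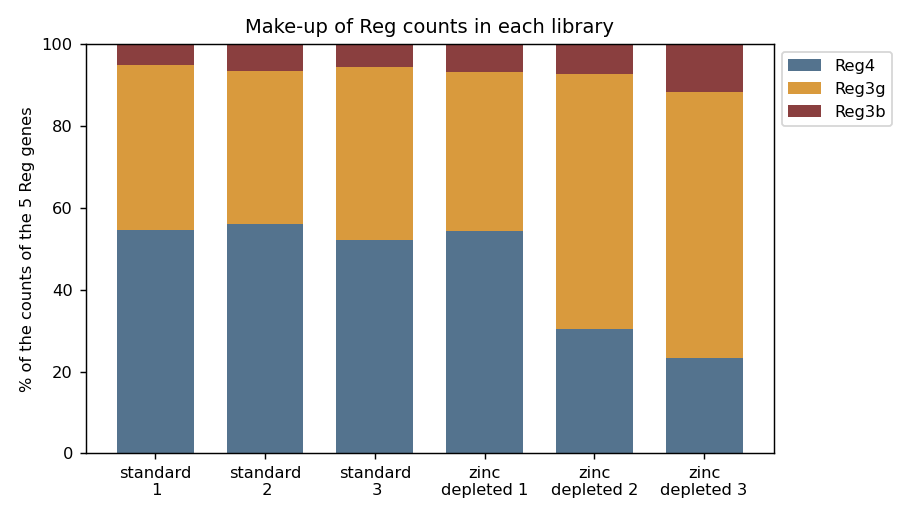
Share of Reg4, Reg3g and Reg3b in the summed counts of the 5 Reg genes, in percent, with 1 bar per library. Reg4 takes 52.1% to 56.0% in the standard diet libraries and in zinc depleted replicate 1 (54.2%), and 30.4% and 23.2% in zinc depleted replicates 2 and 3. Reg1 and Reg3a together take at most 0.169% and are too small to be seen.

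Markers of cells that are known to express Reg4 were compared beside it. The 7 goblet markers, which were all counted in each library, summed to 2864, 2953 and 1547 CPM on standard chow and 6468, 1753 and 1859 CPM on depleted chow. In CPM of all counts Reg4 and the goblet sum both had their highest value in zinc depleted replicate 1, whereas after TMM scaling Reg4 was highest in zinc depleted replicate 3. Muc2 made up most of that highest goblet sum (4532 CPM). Clca1 and Spdef were also highest in that library, while Tff3, Agr2, Fcgbp and Zg16 were highest in other libraries. Of the goblet markers, 5 were higher and 2 lower on depleted chow after TMM, and 0 passed the threshold. The 10 enteroendocrine markers, none of them at 0 in all libraries, summed to 45.2 to 143 CPM on standard chow and 32.1 to 41.3 CPM on depleted chow, against 1112 CPM of Reg4 or more in each library. The part of these cells in the Reg4 level was not tested.

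Reg1, the lectin of pancreatic acinar cells and intestine, had 5, 31 and 2 counts on standard chow and 2, 1 and 10 counts on depleted chow. Standard diet replicate 2 held 31 of the 51 counts, which is 5.05 CPM with a Wilson 95% interval of 3.56 to 7.17, and the other libraries had 0.135 to 0.783 CPM. Reg3a had 6, 15 and 1 counts on standard chow and 2, 3 and 19 counts on depleted chow, at most 2.44 CPM (Wilson 95% interval 1.48 to 4.03). Neither gene passed the filter on low counts. In both genes the groups overlapped, and a difference between the diets was not detectable at this depth. Standard diet replicate 2 also had the highest sums of the 11 enterocyte markers (296 CPM, against 61.2 and 230 CPM in the other standard diet libraries and 37.8 to 107 CPM on depleted chow) and of the 7 tuft cell markers (876 CPM, against 28.6 to 220 CPM in the others). The enteroendocrine sum was highest in the same library (143 CPM). Zinc depleted replicate 3, which held the largest Reg3a count (19) and its highest value after TMM scaling (3.24 CPM), had the lowest enterocyte sum (37.8 CPM). Its tuft sum was 34.7 CPM. None of the 11 enterocyte or 7 tuft markers was at 0 in all libraries. Of the 11 pancreatic acinar markers, 8 were at 0 in all 6 libraries, among them Cpa1, Pnlip, Amy2a5 and Prss2. The exceptions were Clps, the colipase gene, with 1806 to 3617 CPM, Cela1 with 3.51 to 6.58 CPM, and Ctrb1 with at most 1 count. The sum of the acinar markers was 2520 to 3622 CPM on standard chow and 1812 to 3293 CPM on depleted chow, nearly all of it Clps. The part of enterocytes, tuft cells or enteroendocrine cells in the Reg1 and Reg3a counts was not tested.

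The other genes of the family were not detected beyond single counts. Reg2, a neighbour of Reg1 known from the pancreas, had 0 counts in all 6 libraries. Reg3d, which is also known from the pancreas, had 2 counts in standard diet replicate 2 and 0 in the others. These counts allow up to 0.235 to 0.489 CPM for Reg2, depending on the library.

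Genes of the pathways that are known to act on Reg3b and Reg3g were examined by list. Like the members, the lists were chosen with earlier results of these data known. In the list of 13 genes of IL-22, IL-6 family and STAT3 signalling, 12 were tested, 10 were higher and 2 lower on depleted chow, and 0 passed the threshold. Their median log2 fold change was 0.63, against 0.00 over all tested genes, while scaling by total counts gave 7 higher of 12 and a median of 0.14 against -0.67. Il22ra1, which encodes a chain of the IL-22 receptor, had 11.3, 14.7 and 7.82 CPM on standard chow and 25.8, 9.83 and 2.74 CPM on depleted chow, a log2 fold change of 0.65 (SE 0.45, adjusted p by edgeR 0.707). Stat3, the transcription factor downstream of it, had 45.2, 61.1 and 58.9 CPM on standard chow and 187, 32.4 and 14.8 CPM on depleted chow, a log2 fold change of 0.68 (SE 0.55, adjusted p by edgeR 0.731). In both genes zinc depleted replicate 1 had the highest value and the groups overlapped, and a relation of these genes to the Reg levels was not tested. Socs3, the feedback inhibitor that STAT3 induces, had 87.6, 22.8 and 165 CPM on standard chow and 372, 122 and 66.1 CPM on depleted chow, a log2 fold change of 1.24 (SE 0.72, adjusted p by edgeR 0.681).

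In the MyD88 list all 10 genes were tested, 7 were higher and 3 lower on depleted chow (4 and 6 with total counts only), and 0 passed the threshold. Myd88, the adaptor of Toll-like receptors, had 14.7, 19.7 and 31.1 CPM on standard chow and 59.6, 17.8 and 11.5 CPM on depleted chow, a log2 fold change of 0.74 (SE 0.51, adjusted p by edgeR 0.707). Its groups overlapped, as those of Stat3 did. Extl3, proposed as a receptor for Reg proteins, had 19.8, 15.96 and 8.02 CPM on standard chow and 26.3, 2.42 and 3.13 CPM on depleted chow, a log2 fold change of -0.08 (SE 0.52, adjusted p by edgeR 0.966). Of the 14 microbe-induced defense genes of the gut epithelium, 7 were tested, 6 were higher and 1 lower (5 and 2 with total counts only), and 0 passed the threshold. Their median log2 fold change was 0.80 with TMM. Saa1, Saa2 and Sprr2a1 of that list were at 0 in all libraries.

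The genes whose levels across libraries were most like those of each Reg gene were sought among 4269 genes with a mean log2 CPM of at least 3. Likeness was the root mean square difference of log2 CPM after TMM, centred on each gene's mean over 6 libraries. Nearest to Reg3g were Ift20 (0.0862), Guk1 (0.155) and Sec61b (0.168), which encode an intraflagellar transport protein, guanylate kinase and a subunit of the ER translocon. Nearest to Reg3b were Agr2 (0.195), a disulfide isomerase of the ER that is also among the 7 goblet markers examined, Ift20 (0.292) and Dynll1 (0.296), a dynein light chain. Reg3b and Reg3g differed by 0.255 from each other, so that Agr2 alone among the genes compared lay nearer to Reg3b than Reg3g did. From the other side, Ift20, Guk1 and Sec61b all lay nearer to Reg3g than Reg3b did, and further such genes were not counted. The median over the genes compared was 1.06 for Reg3b and 1.02 for Reg3g. Nearest to Reg4 were Trmt2a (0.06), Clptm1l (0.07) and Arl8b (0.07), against a median of 0.50, and Reg4 differed from Reg3g by 0.82 and from Reg3b by 0.86. These distances describe 6 libraries that share the same scaling factors, and many genes that differ little after TMM lie near Reg4.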

How the data were processed

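The authors deposited 1 table of unnormalized gene counts, whose rows are Ensembl identifiers and whose columns are the 6 libraries. RNA of the sorted cells was read from 1 end on an AVITI sequencer (Element), per the labels, and the submitters' processing notes name FastQC, Trimmomatic 0.39, STAR 2.7.10a, DESeq2 and the build mm39. How reads were counted per gene (program, strand, reads with several matches) is not given in the sources used here.

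Symbols and positions came from GENCODE M39 on GRCm39, the same build, which held 54749 of the 55414 identifiers. The other identifiers held at most 0.00479% of the counts of a library. TPM used canonical transcript lengths. Promoters came from a RefSeq table built on GRCm38.p6, and each was found once in GRCm39. The main test was edgeR 4.0.16 (R 4.3.3), quasi-likelihood fit (TMM, filterByExpr, diet as the only term, two-sided), with Benjamini-Hochberg adjustment over all 9749 tested genes and a threshold of 0.05. The SE was the absolute log2 fold change divided by the square root of F. DESeq2 1.42.0, limma-voom (limma 3.58.1), RLE factors, total counts only, TMM without the most abundant Paneth cell genes and Reg genes, no low-count filter, a replicate block and the omission of each library were alternatives. Log2 ratios inside a library were given where both genes had at least 10 counts in each library, and were compared by exact permutation tests. Log2 CPM used a prior count of 2, and 0.5 was added to CPM for the SD within groups. The procedure was tested on simulated data.

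The genes named were the 5 members, Reg2, Reg3d, Lyz1, Stat3, Socs3, Il22ra1, Myd88, Extl3, list members with an adjusted p under 0.05, and the 3 genes nearest to each tested member. Marker and list genes named beyond these were chosen after their values were seen. The members and lists were chosen with earlier results of these data known.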

Additional observations from a re-analysis of the deposited data

How the results depend on the processing

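Without the low-count filter edgeR called 76 of 17790 genes, against 0 in the reported fit. DESeq2, also run without that filter, so that both tool and filter differed from the reported fit, called 6 of 17776. The edgeR fit without standard diet replicate 3 called 28, and with 1 library left out the number ranged from 0 to 28. None of these calls was one of the 5 Reg genes. Reg4 changed sign with total counts only (-0.38). Reg3b and Reg3g kept their sign in all 13 alternatives and passed the threshold in none. The edgeR, DESeq2 or limma-voom adjusted p ranged from 0.0944 to 1.00 for Reg3b, from 0.117 to 1.00 for Reg3g and from 0.501 to 1.00 for Reg4. With 1 library left out, the log2 fold change ranged from 1.10 (without zinc depleted replicate 3) to 2.26 (without zinc depleted replicate 1) for Reg3b, from 1.18 to 2.11 for Reg3g (the same libraries), and from 0.16 to 0.56 for Reg4.

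Reg1 and Reg3a gave a value for all 6 libraries in 2 alternatives. Without the low-count filter the log2 fold change was -1.05 (SE 0.97, adjusted p by edgeR 0.754) for Reg1 and 0.75 (SE 0.96, adjusted p by edgeR 0.763) for Reg3a, and with DESeq2 it was -0.98 (SE 1.23) and 0.84 (SE 1.19).

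The 4 ratios kept their sign in all 8 alternatives each. With 1 library left out they ranged from -0.35 to -0.04 for Reg3g to Reg3b, from 0.26 to 0.71 for Reg3b to Lyz1, from 0.22 to 0.51 for Reg3g to Lyz1 and from -1.23 to -0.50 for Reg4 to Lyz1.

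With the replicate block 0 genes were called and 962 had an unadjusted p under 0.05, against 645, and the log2 fold changes were 1.59 for Reg3b, 1.46 for Reg3g and 0.33 for Reg4. The deviations of same-numbered libraries correlated at 0.15, -0.06 and 0.25, and standard diet replicate 2 correlated best with zinc depleted replicate 1 (0.25), so the numbers were not taken as pairs.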
